A study of Mus musculus with 3 samples.

Results

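The genes described here are 134 well-expressed long intergenic noncoding RNA (lincRNA) genes of mouse macrophage chromatin. A gene was selected on its measured level: at least 1 of its transcripts had the type lincRNA, and its gene table gave at least 5 TPM in each of 3 libraries. TPM gives a level per transcript length, on a scale with the same sum in every library. Of 55536 annotated genes, 6058 had a lincRNA transcript and 150 of those passed the level, after which 16 were left out by name. Those 16 were Malat1, Neat1, Gm26917, Rmrp and hosts of snoRNAs, microRNAs or Dleu2 transcripts, with symbols such as Snhg1, Gas5 and Mir155hg. The level that chose the genes is given below as a description, and no test of it supports anything.

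Chromatin RNA was measured by total RNA-seq depleted of ribosomal RNA in bone marrow-derived macrophages from C57BL/6J mice. All 3 libraries were of 1 group. The cells had 100 ng/ml lipid A, the TLR4-activating part of lipopolysaccharide, for 12 h, then 12 h after washout, then 100 ng/ml again for 30 min. The labels give separate biosamples under 1 donor identifier, so p-values over the libraries measure the spread between these samples. Input RNA as labelled was 1 µg (replicate 1), 250 ng (replicate 2) and 500 ng (replicate 3), so input and replicate cannot be told apart. Sex and age are marked in the labels as not collected. Untreated and singly treated cells were not analysed here, and the levels do not show a response to lipid A.

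LincRNA genes are annotated apart from protein-coding genes, though some overlap one on the other strand, and give transcripts that are usually spliced, capped and polyadenylated like mRNA but hold no long conserved reading frame. Many of these RNAs stay at the chromatin they were transcribed from, and a few are known to act there, such as Xist, which coats the X chromosome that it silences in female cells. Others are known mainly as marks of active enhancers or promoters near the gene.

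Sequences are given for 2 sets of genes. The first set is the members under 200 bases long, because their TPM rests on few reads. They are the whole GENCODE M21 transcripts of Gm23925, at chr2:158359797-158359928 on the minus strand, and Gm28872, at chr4:132270056-132270213 on the plus strand. They had 132 and 158 bases and were 53.0% and 48.7% G or C.
Gm23925: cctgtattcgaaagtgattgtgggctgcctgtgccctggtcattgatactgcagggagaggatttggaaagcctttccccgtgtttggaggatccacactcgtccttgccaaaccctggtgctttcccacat
Gm28872: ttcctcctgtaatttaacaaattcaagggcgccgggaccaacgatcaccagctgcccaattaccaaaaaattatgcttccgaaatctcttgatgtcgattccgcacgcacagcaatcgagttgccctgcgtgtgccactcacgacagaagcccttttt

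The second set is promoter windows of members that the results return to. They are from RefSeq (GRCm38.p6), run 300 bases from 250 before to 50 after the transcript start, and have capitals where a searched motif was found on either strand. AW112010 and 1110002J07Rik are among the members that varied most between libraries, Gm20559 is the third highest member, and Ftx lies at the X-inactivation centre. The windows are chr6:3346092-3346391 for Gm20559, chr19:11050517-11050816 for AW112010, chr10:66920335-66920634 for 1110002J07Rik and chrX:103623705-103624004 for Ftx, all on the minus strand.
Gm20559: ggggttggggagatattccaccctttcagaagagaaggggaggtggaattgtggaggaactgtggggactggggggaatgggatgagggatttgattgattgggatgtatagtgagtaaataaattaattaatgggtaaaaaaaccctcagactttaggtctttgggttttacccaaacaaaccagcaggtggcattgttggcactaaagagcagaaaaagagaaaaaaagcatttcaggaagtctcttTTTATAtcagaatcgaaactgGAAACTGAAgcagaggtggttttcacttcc
AW112010: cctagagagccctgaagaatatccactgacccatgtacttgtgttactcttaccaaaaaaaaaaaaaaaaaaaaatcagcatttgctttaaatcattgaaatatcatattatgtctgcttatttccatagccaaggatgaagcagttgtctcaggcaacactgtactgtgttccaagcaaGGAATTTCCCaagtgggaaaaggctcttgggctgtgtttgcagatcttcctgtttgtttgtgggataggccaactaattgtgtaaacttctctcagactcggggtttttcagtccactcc
1110002J07Rik: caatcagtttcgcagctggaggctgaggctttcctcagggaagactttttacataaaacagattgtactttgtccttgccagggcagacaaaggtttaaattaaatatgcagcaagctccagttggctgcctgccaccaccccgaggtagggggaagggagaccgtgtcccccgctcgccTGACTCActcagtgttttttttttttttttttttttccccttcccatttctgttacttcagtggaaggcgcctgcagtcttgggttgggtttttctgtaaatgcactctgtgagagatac
Ftx: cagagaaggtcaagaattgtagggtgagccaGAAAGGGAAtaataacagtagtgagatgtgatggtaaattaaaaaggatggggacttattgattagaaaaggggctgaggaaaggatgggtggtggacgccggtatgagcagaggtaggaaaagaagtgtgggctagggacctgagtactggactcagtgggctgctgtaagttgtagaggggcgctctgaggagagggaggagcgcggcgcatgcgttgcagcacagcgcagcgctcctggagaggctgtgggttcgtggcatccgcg

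The capitals mark an interferon response core (GAAANNGAA) in Gm20559 and Ftx, and the TATA letters TATAAA, read on the minus strand of the window, in Gm20559. In AW112010 they mark a match to the NF-kB site, named for the inflammatory transcription factor, and in 1110002J07Rik a match to the AP-1 site (TGANTCA). The interferon response core was in a window of 8 of the 48 members that had one (16.7%), namely Gm20559, Gm36161, 2310001H17Rik, F730311O21Rik, Gm46224, Ftx, Gm26797 and 5930403N24Rik. It was in 9.76% of all 27025 genes with a window. The NF-kB site was in 2 members (4.17%, against 5.14% of all genes), which were AW112010 and Ino80dos. The AP-1 site was in 4 members (8.33%, against 8.97%) and the PU.1 site GAGGAAGT in 1, F730311O21Rik (2.08%, against 3.69%). TATAAA was in 10 members (20.8%, against 15.7%). These shares were not tested, and a match of letters is not a binding site.

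The depth was 12532722 expected counts in replicate 1, 18395358 in replicate 2 and 18237730 in replicate 3. All 8 macrophage markers were above 1 TPM, while none of the markers of T and NK cells, B cells, granulocytes and mast cells, dendritic cells, erythroid cells or stromal, endothelial and epithelial cells passed that test. Of 4 Y-linked genes, added after seeing the data, Ddx3y, Eif2s3y and Uty were at 0 in every library and Kdm5d had 0.04 TPM in replicate 2 alone. By the SD of read assignment, the deposited counts appear to have divided reads between genes on opposite strands. Of 66 genes with most exonic bases over exons of an opposite-strand gene alone, 92.4% had a read-assignment SD above 1% of their count, against 2.56% of 5400 genes with no exonic overlap. For 76 genes with most exonic bases over exons of a same-strand gene alone, the share was 80.3%. Some exonic bases lay over exons of an opposite-strand gene in 54 members, and 14 of these had an assignment SD above 1%. Most of the exonic bases did so in 12 members, 10 of them with an SD above 1%, and the reads of those genes may come from either strand. Exonic bases over exons of a same-strand gene were found for 20 members, and 67 members had neither. These overlaps are of exons only, and reads from introns of an overlapped gene were not examined.

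The members took 3.12% of all counts in replicate 1, 4.16% in replicate 2 and 3.79% in replicate 3. Gm42418 and Xist alone were 74.7%, 85.6% and 83.0% of the members' counts, so the other 132 genes shared 0.791%, 0.599% and 0.644% of each library. The median member had 15.5 TPM in replicate 1, 14.2 in replicate 2 and 13.4 in replicate 3. By mean TPM, 39 members were between 5 and 10, 46 between 10 and 20, 30 between 20 and 50, 8 between 50 and 100, and 11 at 100 or above. In the gene table most lincRNA genes were far below this range. There, 4470 of 6058 had 0 TPM in every library and 456 had a mean of at least 1 TPM. This rests on the quantification. A second one of the same libraries, described below, gave 699 such genes with at least 5 TPM in each library, after the same names were left out.

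**Figure D1:**
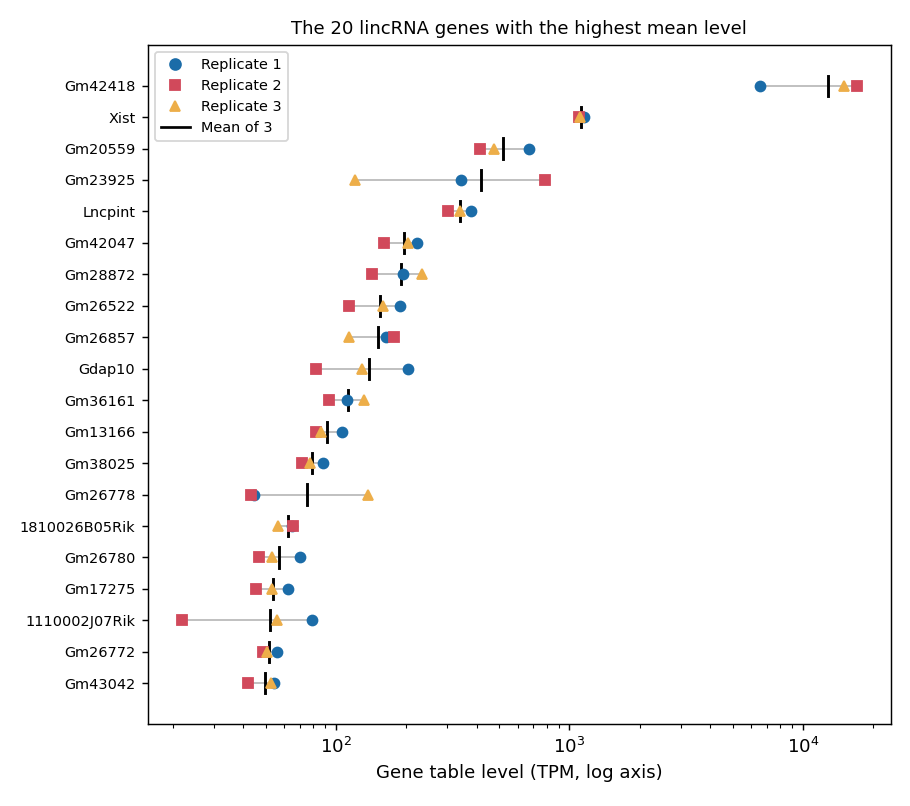
Gene table level in TPM (log axis) of the 20 members with the highest mean, 1 row per gene, with 1 symbol per library and a black bar at the mean of 3. Gm42418 is lowest in replicate 1, while Gm20559, Gdap10 and 1110002J07Rik are highest there. Gm26778 stands out in replicate 3 alone, at 137 TPM.

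The highest member was Gm42418 (ENSMUSG00000098178.1, chr17:39846958-39848788, plus strand), with 6574 TPM in replicate 1, 17000.3 in replicate 2 and 15015 in replicate 3. Replicate 1 was the lowest by a factor of 2.59 against the highest. RefSeq names this locus Rn18s-rs5, an 18S ribosomal RNA related sequence, and 99.5% of its exonic bases lie over an exon on the opposite strand. Its type says lincRNA, but its annotation is that of ribosomal RNA sequence, which the libraries were depleted of. The part of residual ribosomal RNA in its level was not tested.

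Xist (ENSMUSG00000086503.4) had 1156 TPM in replicate 1, 1096 in replicate 2 and 1109 in replicate 3. It was among the 5 steadiest members by the coefficient of variation of TPM (CV, the SD as a percentage of the mean), at 2.82%. Its full-length transcript of 17946 bases and 7 exons took 98.5% ± 0.226 of its counts (SD, n = 3). Its neighbours at the X-inactivation centre were far lower. Jpx, a noncoding activator of Xist in mouse, had 11.4, 16.3 and 9.99 TPM in replicates 1, 2 and 3. Ftx, another noncoding regulator of Xist, had 13.2, 15.8 and 11.8 TPM. Both were highest in replicate 2, where Xist was lowest. The 3 genes lie within 163425 bases of the X chromosome.

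Gm20559 (chr6:3333194-3346128, minus strand) had 669 TPM in replicate 1, 415 in replicate 2 and 476 in replicate 3. It lies on the same strand as Samd9l, an interferon-inducible antiviral gene, 26129 bases away. Samd9l had 212 TPM in replicate 1, 165 in replicate 2 and 176 in replicate 3, so both genes had the same order of libraries. The noncoding gene was 2.83 times as high as the coding one by mean TPM.

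Lncpint (chr6:31082565-31220488, minus strand), known in human and mouse as a p53-induced RNA that binds a Polycomb complex, had 379 TPM in replicate 1, 301 in replicate 2 and 340 in replicate 3. It was steady, with a CV of 11.5%. It was also the member with the most transcripts, 16, of which the leading one took 30.4% ± 1.99 of the counts (SD, n = 3). Its nearest protein-coding gene, Klf14, was listed at 0 in every library.

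Gm23925 and Gm28872 were high in TPM on few reads. Gm23925 had 344 TPM in replicate 1, 788 in replicate 2 and 121 in replicate 3, from 6.88, 15.8 and 2.84 expected counts. Gm28872 had 193, 142 and 235 TPM from 16, 11 and 21 expected counts. The sequences shown above are 132 and 158 bases, so 1 read adds far more TPM to them than to a gene of usual length. Gm23925 also lies wholly (100%) over exons of a same-strand gene and had an assignment SD of 34.3% of its count. Gm28872 had 84.8% of its exonic bases over opposite-strand exons, with an assignment SD of 0. Its reads may come from either strand, and which gene holds those exons was not examined. Both levels are uncertain for these reasons, and Gm23925 had the highest CV of all members, 81.3%. Of the 134 members, 4 had a mean count under 20 and 114 had at least 100.

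Several high members overlapped a gene with a role in macrophages. Gdap10 lies on the strand of Nampt, the rate-limiting enzyme of NAD salvage, and inside its gene body. Gdap10 had 204 TPM in replicate 1, 82.0 in replicate 2 and 129 in replicate 3. Nampt had 116, 58.4 and 85.3 TPM, so both were highest in replicate 1 and lowest in replicate 2. Gm26522 is opposite to Ctsc, the lysosomal protease cathepsin C. Gm26522 had 188 TPM in replicate 1, 114 in replicate 2 and 160 in replicate 3, against 612, 403 and 578 TPM of Ctsc. The order of libraries was the same for both genes, and no exonic base of Gm26522 lies over an exon of an opposite-strand gene. Reads from introns of an overlapped gene, such as Ctsc or Nampt, would not show in an overlap of exons. Their part in the levels of these members was not tested. Gm26857 is opposite to Lyn, a Src-family kinase of myeloid cells. It had 164, 178 and 113 TPM, against 212, 181 and 162 TPM of Lyn, and both were lowest in replicate 3.

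Gm26778 is opposite to Kctd12, which encodes an auxiliary subunit of GABA-B receptors. Gm26778 had 44.5 TPM in replicate 1, 43.2 in replicate 2 and 137 in replicate 3, against 64.1, 64.8 and 201 TPM of Kctd12. Replicate 3 stood apart for both genes by a like factor. Every exonic base of Gm26778 (100%) lies over an exon of an opposite-strand gene, and its assignment SD was 3.43% of its count, so its reads may come from either strand. Members lower in level had larger SDs at a like overlap, such as Gm26882 with 19.2% and Gm26699 with 12.3%.

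Other members among the first 20 also overlapped an expressed gene. Gm26780 averaged 56.8 ± 12.3 TPM, opposite to Abr, a GTPase activator for Rac, which averaged 129 ± 8.71 TPM (SD, n = 3 each). Gm17275 averaged 53.6 ± 8.44 TPM, opposite to H3f3a, which encodes histone H3.3 and averaged 35.9 ± 8.87 TPM. Gm26772 averaged 51.7 ± 3.74 TPM, opposite to Zmiz1, a transcriptional coactivator, which averaged 106 ± 4.24 TPM. Gm26772 was among the steadier of these, between 48.7 and 55.9 TPM over the libraries. 1810026B05Rik, which RefSeq names Chaserr, had 64.5 TPM in replicate 1, 65.2 in replicate 2 and 56.6 in replicate 3. Chaserr is known in mouse to repress Chd2, the chromatin remodeller gene that it overlaps in this annotation and that had 159, 131 and 135 TPM. The genes did not share an order of libraries.

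The remaining high members were mostly beside genes at or near 0. Gm42047 had 221, 160 and 204 TPM in replicates 1, 2 and 3, against at most 0.910 TPM for Gm20388, the protein-coding gene on its strand that it overlaps. Gm36161 had 112, 93.2 and 132 TPM, and Gm36079 near it averaged 29.4 ± 2.56 TPM (SD, n = 3). Gm13166 had 106, 82.5 and 86.4 TPM, against at most 0.550 TPM for Zfp600. Gm36079 was the exception to the low neighbours. Each of these noncoding genes was lowest in replicate 2. Gm38025 had 87.8, 71.5 and 77.4 TPM, while Slc7a14, an amino acid transporter family gene 30634 bases away, averaged 0.0933 ± 0.0252 TPM. Gm43042 had 54.3, 42.0 and 52.7 TPM, and its nearest protein-coding gene, the protocadherin Pcdh7, lay 1436472 bases away with a mean of 1.96 ± 1.37 TPM. For the short members, Snhg11 beside Gm23925 averaged 0.187 ± 0.107 TPM and Taf12, a TFIID subunit gene beside Gm28872, averaged 1.48 ± 0.743 TPM. The nearest protein-coding gene to Gm42418, Esp38, lay 101732 bases away and was at 0. The gene overlapping Xist, Gm26992, was also at 0.

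A list of 33 annotated long noncoding RNA genes with roles described in macrophages or in the nucleus served as a guide to known names, and 20 of the 29 with a nonzero value passed the limma test above 1 TPM (69.0%, against 51.1% of all genes tested). Of these, 8 are members: AW112010, Xist, Pvt1, Lncpint, Ftx, Jpx, 1700020I14Rik and Gm20342. The selection fixed that these 8 passed. Malat1, Neat1 and Mir155hg had also reached the level of the selection before they were left out by name. The 69.0% therefore does not set the list apart from all genes. AW112010, which in mouse macrophages is known to be translated and induced by lipopolysaccharide, had 39.0 TPM in replicate 1, 10.6 in replicate 2 and 19.5 in replicate 3. Pvt1, the noncoding neighbour of the Myc oncogene, had 9.57, 7.68 and 12.4 TPM, against 3.64, 1.53 and 3.85 TPM of Myc. Both were lowest in replicate 2 and highest in replicate 3. 1700020I14Rik, which RefSeq names Oip5os1, lies downstream of Oip5 on the opposite strand and had 12.7, 16.9 and 16.9 TPM, while Oip5 did not exceed 0.820 TPM. Gm20342 had 6.45, 7.05 and 6.09 TPM, against 27.9, 25.0 and 28.1 TPM of Ino80d, a chromatin remodelling subunit gene beside it. A further member, 2900097C17Rik, is the gene that RefSeq names Norad, a cytoplasmic binder of PUMILIO proteins. It had 21.9 TPM in replicate 1, 27.5 in replicate 2 and 26.1 in replicate 3. Other members with a given name were near the lower end: Ino80dos with 8.15, 9.77 and 6.62 TPM, and Dubr, needed for myogenic differentiation in mouse, with 7.33, 6.6 and 7.89 TPM. List members outside the set included the X-linked Firre, typed as a processed transcript, at 95.3 ± 14.4 TPM, and Hotair, Miat and Pantr1, which were listed at 0.

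The position of the members relative to protein-coding genes is set beside that of the 1455 other lincRNA genes with counts, which include the 16 left out by name. A protein-coding gene body was overlapped by 52 members (38.8%), against 17.5% of the others. The overlap was on the opposite strand for 42 members (31.3%, against 14.6%) and on the same strand for 10 (7.46%, against 2.89%). Members that were divergent from the nearest gene, head to head with it, numbered 25 (18.7%, against 28.9%). Beyond 50000 bases of any protein-coding gene lay 19 members (14.2%, against 21.2%). Genes that overlap are in the totals behind these shares but were not counted as head to head or as beyond 50000 bases. Since members overlapped more often, the classification itself makes part of the head to head and distance differences. Since overlapping genes may share reads, and the members were chosen for high values, none of the shares of position was tested.

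**Figure D2:**
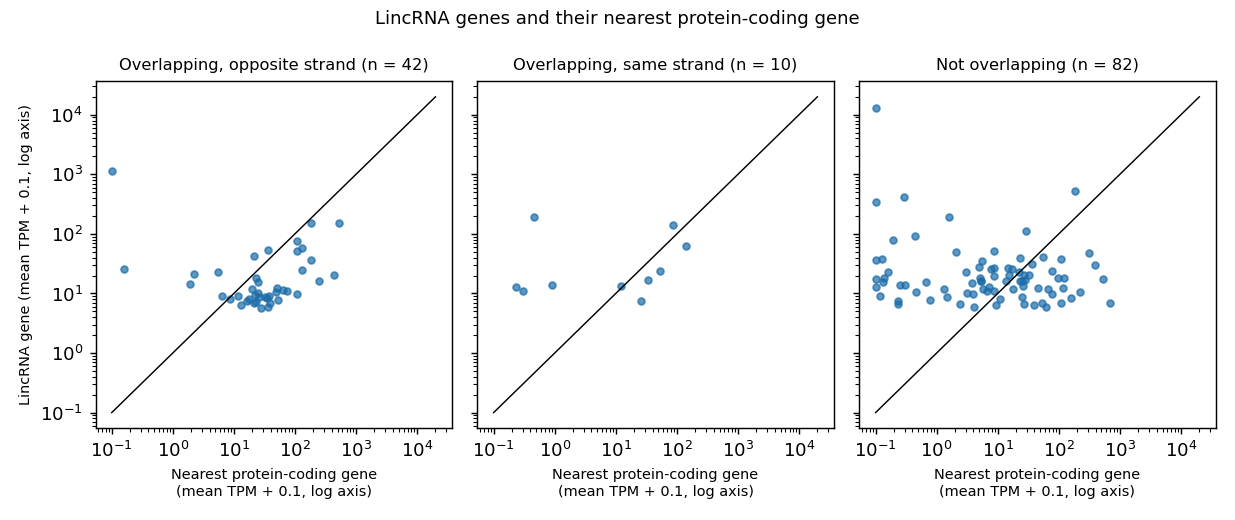
Mean TPM of each member (vertical, log axis, 0.1 added) against that of its nearest protein-coding gene (horizontal, log axis, 0.1 added), for members overlapping on the opposite strand (42), on the same strand (10) or not overlapping (82). The line marks equal levels. In the first panel 34 of 42 points lie under the line, and in the last panel 51 of 82 lie above it.

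The nearest protein-coding genes of the members were mostly expressed. The limma test of log2(TPM + 0.1) against 1 TPM, Benjamini-Hochberg adjusted over 24180 genes, called 51.1% of all genes and 61.7% of protein-coding genes. It called all 134 members, which the selection fixed, and 14.2% of the other lincRNA genes. Of the 126 distinct neighbours, 123 were tested and 99 were called (80.5%), against 72.9% of the neighbours of other lincRNA genes with counts. The called share was 46 of 51 (90.2%) for neighbours that a member overlapped, against 68.7% of genes that other lincRNA genes overlapped. Overlapping genes may share reads and the members were chosen for high values, so the selection may favour expressed overlapped genes. Its part in this share was not tested. It was 54 of 73 (74.0%) for neighbours not overlapped, near the 73.7% of such neighbours of other lincRNA genes. A gene such as Ctsc, with a member on each side of this split, counts in both. Samd9l passed at 7.38 ± 0.159 on the log2 scale above 1 TPM (SE, limma adjusted p = 3.94e-05), and Kctd12 at 6.42 ± 0.413 (limma adjusted p = 0.000194). Pcdh7 (limma adjusted p = 0.149) and Taf12 (limma adjusted p = 0.215) did not pass.

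The level of the neighbours followed the same split. Neighbours that a member overlapped had a median of 26.6 TPM, against 4.72 TPM for genes overlapped by other lincRNA genes. The same limit of shared reads and selection holds for this difference. Neighbours not overlapped had a median of 9.00 TPM, against 5.80 TPM for those of other lincRNA genes. The median over protein-coding genes tested was 4.16 TPM. Among the 42 members opposite to a gene they overlap, 34 were lower than that gene and 8 were higher, with medians of 10.9 TPM for the members and 29.8 TPM for the genes. Without overlap, 31 of 82 members were lower than their neighbour and 51 were higher. The order of the 3 libraries was the same in member and neighbour for 14 of 47 overlapping pairs (29.8%) and for 14 of 64 other pairs (21.9%). For other lincRNA genes these shares were 17.8% and 31.5%, so the members' share was higher with overlap and lower without it. These orders were taken on TMM-scaled CPM, which does not use length, while those of the named pairs are on TPM. The differences were not tested.

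Within 1000 bases of a protein-coding start on the other strand, head to head, lay 6 members (4.48%), against 9.90% of the other lincRNA genes with counts. This cut in distance was chosen after seeing the data. Overlapping genes are in the total behind both shares but were not counted as head to head, and members overlapped more often. The classification itself therefore makes part of this difference. 5031425E22Rik, 172 bases from Kmt2e, a chromatin regulator gene, had 37.8 TPM in replicate 1, 40.2 in replicate 2 and 43.3 in replicate 3, against 57.5, 51.3 and 55.0 TPM of Kmt2e. Gm7160, 124 bases from Zcchc2, had 19.8, 24.5 and 16.6 TPM, against 33.4, 30.5 and 32.6 TPM. Gm17705, 222 bases from Prrc2a, had 20.6, 18.8 and 14.4 TPM, against 116, 139 and 116 TPM. In these pairs the noncoding gene was lower than its partner in every library. 5930403N24Rik, 482 bases from Marcks, an actin-regulating substrate of protein kinase C, had 10.6, 6.42 and 12.7 TPM, against 82.8, 70.3 and 82.4 TPM of Marcks, and both were lowest in replicate 2. The remaining pairs were AI480526 with Setd1b and 4833445I07Rik with Ndufaf3. Of all 6, the Ndufaf3 pair alone had the member higher than the coding gene by mean TPM.

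Values of 5 further members and their neighbours are given as examples, picked by name after their values were seen. D730003I15Rik, 6415 bases from Atf3, a stress-induced transcription factor gene, had 13.0, 12.2 and 9.92 TPM in replicates 1, 2 and 3, against 88.2, 28.7 and 84.1 TPM of Atf3. The low value of Atf3 in replicate 2 had no counterpart in the noncoding gene. Gm26510, 20803 bases from Tgif1, a transcriptional repressor gene, had 8.99, 10.5 and 11.7 TPM, against 251, 143 and 283 TPM. It too did not follow its neighbour in replicate 2. Gm4258, 62477 bases from Ptprc, which encodes the leukocyte antigen CD45, had 7.52, 7.73 and 5.58 TPM, against 856, 591 and 655 TPM. 2310001H17Rik, 21878 bases from the lectin gene Clec2d, had 39.9, 25.8 and 23.3 TPM, against 424, 308 and 443 TPM. AU022793, 18655 bases from Lrp12, a lipoprotein receptor family gene, had 48.8, 26.1 and 37.0 TPM, against 151, 71.2 and 100.0 TPM, in the same order of libraries.

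Of the 134 members, 21 (15.7%) had another member within 100000 bases, against 4.74% of the other lincRNA genes with counts that had a member that near. They formed 8 groups. This count was chosen after seeing the data.

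**Figure D3:**
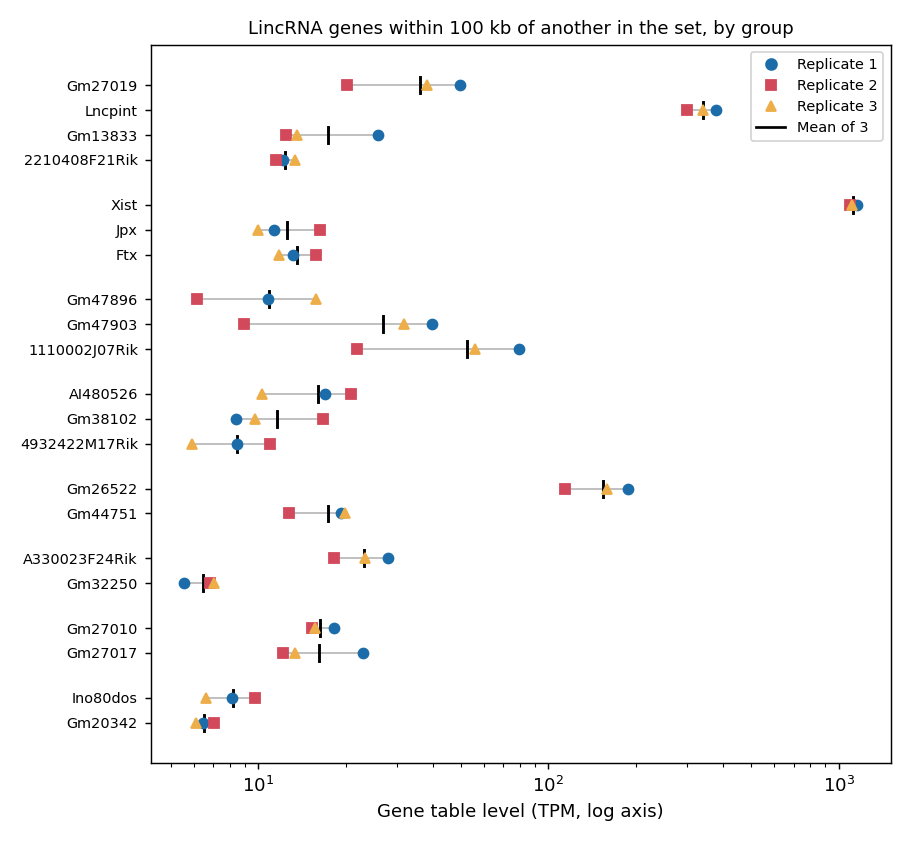
Gene table level in TPM (log axis) of the 21 members that lie within 100 kb of another, in 8 groups set apart by gaps, with 1 symbol per library and a black bar at the mean of 3. In the group of Gm47896, Gm47903 and 1110002J07Rik, replicate 2 is lowest for every gene.

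The largest group lies on chromosome 6 and has Lncpint, Gm27019, Gm13833 and 2210408F21Rik within 274313 bases. Gm27019 had 49.8 TPM in replicate 1, 20.2 in replicate 2 and 38.1 in replicate 3. Gm13833 had 26.0, 12.4 and 13.6 TPM, and 2210408F21Rik, which starts beside Lncpint on the other strand, had 12.2, 11.5 and 13.4 TPM. Lncpint and its first 2 neighbours were each highest in replicate 1 and lowest in replicate 2, while 2210408F21Rik was highest in replicate 3.

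A group on chromosome 10, 110419 bases long, has 1110002J07Rik, Gm47903 and Gm47896. 1110002J07Rik had 79.0 TPM in replicate 1, 21.8 in replicate 2 and 55.9 in replicate 3. Gm47903 had 39.8, 8.96 and 31.9 TPM. Gm47896 had 10.8, 6.16 and 15.8 TPM. All 3 were lowest in replicate 2, by a factor of up to 4.44 against the highest library. Reep3, an endoplasmic reticulum shaping gene that is the nearest protein-coding gene to each, had 10.01, 6.91 and 8.51 TPM, with replicate 2 again lowest. None of the exonic bases of 1110002J07Rik overlap an opposite-strand exon.

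The other 5 groups had 2 or 3 members each. AI480526, Gm38102 and 4932422M17Rik lie within 7944 bases beside Setd1b, a histone H3 methyltransferase gene. AI480526 had 17.0, 20.9 and 10.3 TPM, and all 3 genes were highest in replicate 2, as Setd1b was with 20.5, 31.6 and 22.5 TPM. Of the exonic bases of AI480526, Gm38102 and 4932422M17Rik, 66.6%, 76.0% and 61.5% lie over exons of an opposite-strand gene. The assignment SD was 4.13% of the count for AI480526, 1.03% for Gm38102 and 1.89% for 4932422M17Rik. Whether the opposite-strand gene was Setd1b or another member of the group was not examined. The part of shared reads in their common order was not tested. Ctsc had Gm44751 beside it as well as Gm26522, with 19.3, 12.8 and 20.0 TPM. Gm27010 on chromosome 14 had 18.2, 15.3 and 15.7 TPM. Gm27017 beside it had 22.9, 12.2 and 13.4 TPM, in the same order of libraries. A330023F24Rik with Gm32250, and Ino80dos with Gm20342, made the last groups. A330023F24Rik, opposite to the complement regulator gene Cd46, had 28.0, 18.3 and 23.3 TPM, and Gm32250 had 5.56, 6.82 and 7.02 TPM from 8.67 counts on average.

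The spread of the members between libraries was near that of other genes by its median. The median CV of TPM was 17.3%, with 27 members below 10% and 8 above 50%. The median biological coefficient of variation from edgeR counts was 0.207 over the 132 members kept by its filter, against 0.210 over all 14140 genes kept, 0.201 over protein-coding genes and 0.238 over 325 other lincRNA genes. By CV of TPM, the steadiest members were Gm48653 with 8.28, 8.25 and 8.52 TPM in replicates 1, 2 and 3, and 2610037D02Rik with 20.99, 20.5 and 20.2 TPM. Xist, Gm26823 with 12.2, 12.1 and 12.8 TPM, and A830052D11Rik with 10.3, 11.0 and 10.7 TPM came next. Their CVs were between 1.77% and 3.62%. The biological coefficients of variation of these genes were 0.173, 0.158, 0.194, 0.165 and 0.212 in this order. By that measure A830052D11Rik was above the members' median and Xist was near it.

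The most variable members were Gm23925, Gm26778, AW112010, Gm47903 and 4833445I07Rik. AW112010, at 202 counts in replicate 1, 77.0 in replicate 2 and 136 in replicate 3, had a CV of 63.2% in TPM. Gm47903 had a CV of 59.6%. 4833445I07Rik, head to head with Ndufaf3, a respiratory complex assembly factor gene, had 8.01 TPM in replicate 1, 6.34 in replicate 2 and 18.1 in replicate 3, a CV of 58.9%. It was high in replicate 3 alone. Gm47903 was low in replicate 2, while AW112010, with 39.0, 10.6 and 19.5 TPM in replicates 1, 2 and 3, was lowest in replicate 2 and also stood apart in replicate 1. The other members above 50% were 1110002J07Rik, Gm15628 and Gm42031, and all were lowest in replicate 2. Gm15628, opposite to Lcp1, the actin-bundling plastin of leukocytes, had 22.8, 5.88 and 20.3 TPM, against 311, 177 and 262 TPM of Lcp1.

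Replicate 1 was often the highest library for a member and replicate 2 the lowest. On TMM-scaled CPM, a scale that does not use length, 77 of the 132 members kept (58.3%) were highest in replicate 1, against 34.1% of all genes kept. Only 15 members (11.4%) were lowest there, against 36.0% of all genes. Replicate 2 was lowest for 69 members (52.3%), against 35.3%. On TPM, 65 of 134 were highest in replicate 1 and 61 were lowest in replicate 2, so the members' direction was the same on both scales. The share over all genes was not computed on TPM, so these counts do not set the members apart from other genes. Replicate 1 had the most RNA put in and the fewest counts, and replicate 2 the least RNA put in. The part of input and depth in this order was not tested, and with 1 library at each input they cannot be told apart from the replicate.

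**Figure D4:**
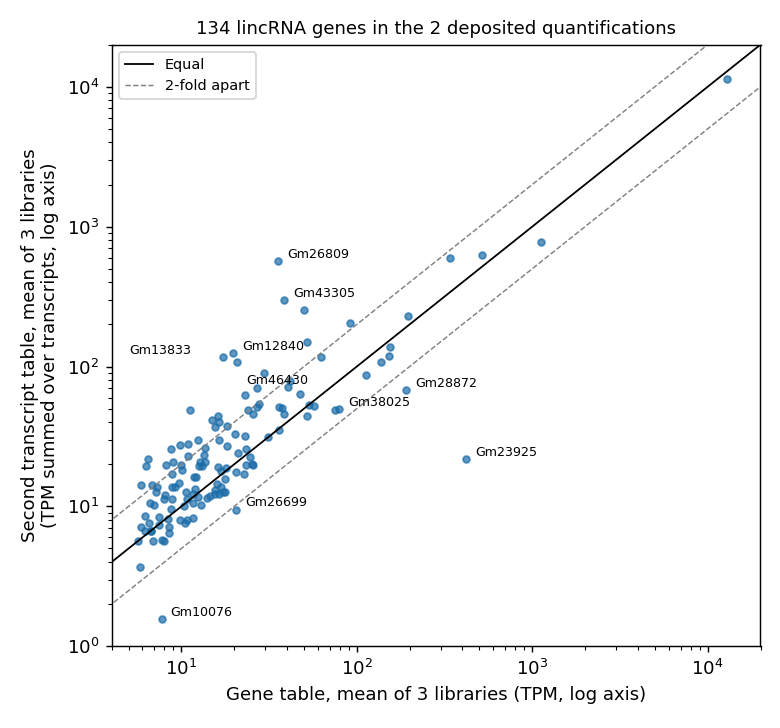
Mean TPM of the 134 members in the second transcript table (vertical, log axis) against the gene table (horizontal, log axis), with the line of equal values and dashed lines 2-fold apart. The 10 genes with the largest or smallest ratio are named, and Gm26809 is the farthest above the line and Gm23925 the farthest below it.

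Each library was also quantified a second time from the reads, in a transcript table whose values were summed here over the transcripts of a gene. The members' median was 19.9 TPM in that table. Their median log2 ratio of the second table to the gene table was 0.25. It was 0.26 over 7943 genes with at least 5 TPM in each library of the gene table, so these median shifts were alike. By count, 83 members (61.9%) were higher in the second table, against 71.4% of those genes. Of the members, 29 (21.6%) were over 2-fold higher in the second table, against 12.6% of those genes. A further 4 members were over 2-fold lower.

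Gm26809 had the largest difference, with 605 TPM in replicate 1, 247 in replicate 2 and 842 in replicate 3 in the second table, against 37.0, 20.0 and 49.6 TPM in the gene table. It was 15.9 times as high on the mean, and the libraries had the same order in both tables. Gm43305 averaged 298 ± 71.0 TPM in the second table, against 38.3 ± 11.7 TPM in the gene table (SD, n = 3 each). Gm13833 averaged 116 ± 37.3 TPM, against 17.3 ± 7.49 TPM. Gm12840 averaged 124 ± 54.7 TPM, against 19.6 ± 7.47 TPM, and Gm46430 averaged 108 ± 27.5 TPM, against 20.7 ± 1.65 TPM. All counts of Gm43305 went to a transcript of 1 exon typed as a retained intron. Among the members in the known list, Lncpint was higher in the second table, at a mean of 598 TPM, while Xist was lower, at 775 TPM.

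At the other end, Gm23925 had 15.9, 28.4 and 20.8 TPM in the second table, a log2 ratio of -4.26. Its order of libraries also differed, since replicate 3 was not the lowest there. Gm10076 was listed at 0 in replicates 1 and 3 and had 4.68 TPM in replicate 2, against 6.73, 7.44 and 8.94 TPM in the gene table. Gm28872 averaged 67.4 ± 22.8 TPM, against 190.0 ± 46.3 TPM, so the short genes shown above were lower by this quantification. Gm26699, opposite to the splicing factor gene Luc7l2 at 417 to 482 TPM, averaged 9.48 ± 4.60 TPM, against 20.5 ± 4.19 TPM. Gm38025 averaged 49.5 ± 7.58 TPM, against 78.9 ± 8.27 TPM.

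The longest transcript of a member had a median of 2170 bases, against 1546 bases over the other lincRNA genes with counts. A single exon was annotated for 15 members (11.2%), against 9.83%. By annotated gene type, 119 members were lincRNA and 15 were processed transcripts with a lincRNA isoform. The leading transcript was typed as a retained intron in AC163635.1, Gm43305, A330023F24Rik, AC121821.1, 1110038B12Rik, Gm4258 and Gm1976. It had the annotation type antisense in AC142100.4, TEC in 2210408F21Rik and processed transcript in 5930403N24Rik, and lincRNA in all other members. In the members named here, most counts were thus not on a lincRNA transcript. Of the 59 members with more than 1 transcript, the same transcript led in both tables for 46, and the leading transcript took a median of 70.3% of the counts. AW112010 was among those where it did not, with 66.5% ± 9.11 of its counts on one transcript in the first transcript table (SD, n = 3) and another transcript leading in the second.

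The members just inside the threshold were Tmem250-ps with 5.23, 10.4 and 8.27 TPM, E430024I08Rik with 5.24, 8.82 and 5.72 TPM, D930016D06Rik with 6.38, 5.24 and 6.98 TPM, Gm1976 with 5.35, 7.32 and 5.04 TPM, and Gm26899 with 6.00, 6.02 and 5.31 TPM. Just outside it were 4930412M03Rik with 4.97, 5.12 and 5.28 TPM, AC122442.1 with 6.16, 5.37 and 4.94 TPM, and Gm26981 with 9.16, 4.94 and 8.27 TPM. Gm34643 with 18.6, 4.89 and 11.6 TPM and 1110019D14Rik with 5.78, 5.47 and 4.83 TPM were also just outside. Gm34643 missed the threshold in replicate 2 alone, so genes inside and outside the line overlap in mean level.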

How the data were processed

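RNA of the chromatin fraction was measured in 3 libraries of 1 group. Expected counts and TPM were deposited by the authors in a gene table and a first transcript table for each library. A second transcript table holds the authors' estimated counts and TPM. The assembly is mm10 and the annotation M21, per the authors' text file with each sample. The aligner, tool versions and counting strand were not given in the sources used here. Total depth is given with the results, and precision is limited by the counts named there.

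The members and lists were chosen with earlier results of these data known. Rows that name no gene, with 1.04%, 0.425% and 0.401% of counts in replicates 1, 2 and 3, were left out. Expected counts were rounded for edgeR 4.0.16 (TMM scaling, filterByExpr). Levels were tested with limma 3.58.1 on log2(TPM + 0.1), one-sided against 1 TPM, adjusted by Benjamini-Hochberg with calls under 0.05, over genes with a nonzero value. Values on this scale understate differences of low genes. DESeq2 1.42.0 size factors were an alternative, as were other pseudocounts (1 and 0.01), a count minimum of 10, a floor of 5 TPM, the second transcript table and leaving out each replicate. The scripts were tested on simulated data. The SD of the read assignment was taken from the authors' gene tables. Promoters and gene synonyms were from RefSeq (GRCm38.p6, the sequence of mm10) and positions from GENCODE M21, with bedtools 2.31.1. Named genes were the 20 highest by mean TPM with their nearest protein-coding gene, 5 at each end by CV, by ratio of the tables and by nearness to the threshold, and every member with a given or listed name. Python 3.11.15 and R 4.3.3 were used.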

Additional observations from a re-analysis of the deposited data

How the results depend on the processing

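The number of members depended on the threshold and on the table. At least 2 TPM in each library gave 234 genes and at least 10 TPM gave 77, while 5 TPM in the second transcript table gave 699. Leaving out 1 replicate gave 137 to 152, and asking that every transcript be typed lincRNA gave 119. The median level of members, 15.5 TPM, was 19.9 TPM in the second transcript table and 13.88 to 14.96 TPM with a replicate left out. The counts of members and neighbours above 1 TPM and the median biological coefficient of variation stayed within 1.5 times under every alternative run, with a floor of 5 TPM giving the fewest, 109 members and 81 neighbours. The mean of 35 of 46 named members moved by more than 1 SD in the second transcript table, and the cause was not tested. No mean moved by more than 1 SD when a replicate was left out, which the mean of 3 values fixes. No paired analysis was possible because there was 1 group. Members with few counts, such as Gm23925 and Gm28872, are limited by depth.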
